A study of Mus musculus with 21 samples.

Results

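Primary mammary organoids carrying the ATLD allele of Mre11 were compared with wild-type (WT) organoids at day 0, before the oncogene neuT was switched on. The members are the 7 day 0 libraries of the 21 in the series, chosen by their labelled genotype and day: WT replicates 1 to 3, ATLD replicates 1 to 3, and a resequenced run of WT replicate 1. The WT group holds organoids labelled wild type, and the ATLD group holds organoids homozygous for the allele ATLD1. Both are day 0 of a course of neuT activation, before the oncogene as the labels give it, and no other agent is named for either. The wider study followed both genotypes to days 14 and 28 of neuT activation to examine the DNA damage response to an oncogene. Organoids here are mouse mammary epithelia grown as primary cultures. The labels do not give the promoter that drives neuT, the age of the animals or how many animals each culture came from, so p-values measure the spread between libraries, which may be technical. The ATLD libraries were sequenced in a different batch from the original WT libraries, and WT replicate 1 was run again beside them so that the batch could be corrected, per the labels.

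Together with Rad50 and Nbs1, the nuclease Mre11 forms the complex that binds broken DNA ends, starts their resection and activates the kinase ATM. ATLD1 is a hypomorphic allele named after ataxia-telangiectasia-like disorder, and cells that carry it have less of the complex and a weak ATM response. The mammary epithelium these organoids come from has an inner layer of luminal cells, made of secretory progenitors and hormone-sensing cells, and an outer layer of contractile basal cells.

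The 7 libraries held 30905703 to 50590974 counts, with the ATLD libraries between 49593997 and 50590974. Mitochondrial transcripts took 2.52% to 3.06% of the counts in all 7. Genes with a count numbered 25425 to 26502 in the 4 WT runs and 23788 to 24537 in the ATLD libraries. Transcripts of cytosolic ribosomal protein genes took 2.77% to 3.06% of the counts in the WT runs and 5.12%, 7.69% and 5.60% in ATLD replicates 1 to 3. Epcam, an epithelial adhesion protein that marks the labelled cell type, was at 608, 667 and 644 CPM in WT, 657 CPM in the resequenced run and 972, 1006 and 1121 CPM in ATLD. Of the defining markers of blood cells, Ptprc had at most 4 counts in any of the 7 libraries, Adgre1 at most 2 and C1qc none. Other blood cell markers had more: Lyz2 had 227, 308 and 201 counts in the first runs of WT replicates 1 to 3 and at most 2 in the other libraries, Cd68 had 75 to 142 counts, Mpeg1 up to 20 and the erythroid gene Alas2 48 to 101. The part of such cells in any result was not tested.

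The genotypes differed across most of the measured transcriptome. Of 18844 genes tested with edgeR's quasi-likelihood test (adjusted p under 0.05, Benjamini-Hochberg), 10458 were called, which is 55.5%. In ATLD 4906 genes were higher (26.0%) and 5552 were lower (29.5%). Changes of at least 2-fold were found for 5101 genes (27.1%), 1659 higher and 3442 lower, and changes of at least 4-fold for 2021 genes (10.7%), 370 higher and 1651 lower. The 3 ATLD values lay above all 4 WT runs for 6221 genes (33.0%) and below all of them for 6385 (33.9%). The median log2 difference over all genes was -0.04 and the median absolute difference 0.61, against which the gene groups below are set.

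The excess of large falls was greatest among weakly expressed genes. Of 4367 genes with a mean log2 CPM (counts scaled to a library of 1000000) of 0 or less, 452 were higher and 1575 lower. By at least 2-fold, 424 of these were higher and 1544 lower. At the other end, above a mean log2 CPM of 6, 1532 genes were higher and 805 lower, 296 and 203 of them by at least 2-fold. Changes of at least 4-fold were more often falls at every level, with 10 higher and 15 lower above 6. The ATLD libraries also held fewer detected genes than every WT run, as given above. The plot of difference against level shows both ends.

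**Figure D1:**
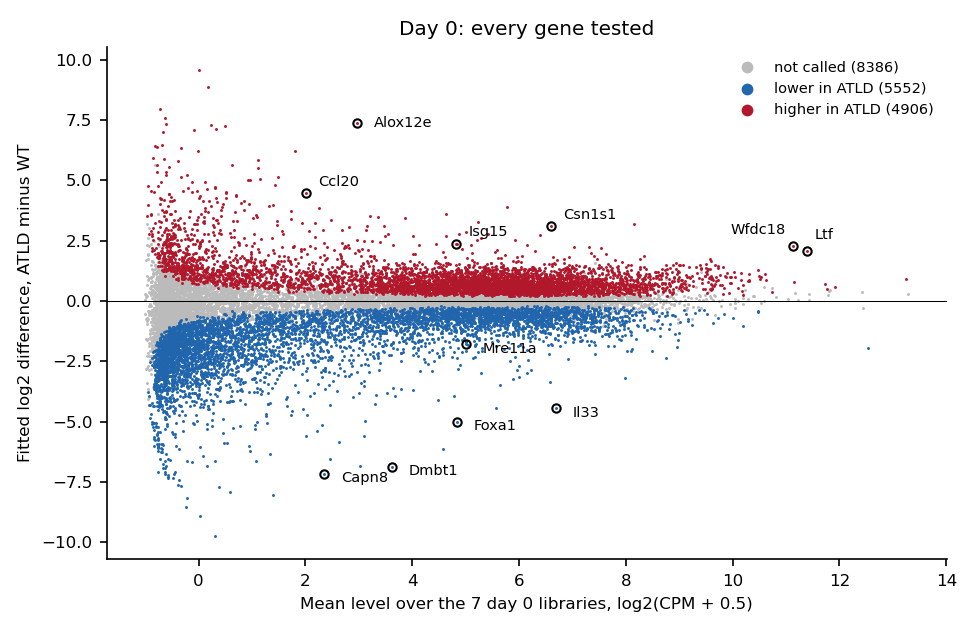
Fitted log2 difference of ATLD minus WT at day 0 for 18844 genes (y axis) against the mean log2 CPM of the 7 day 0 libraries (x axis, a log scale). Grey points are the 8386 genes not called, blue the 5552 called lower and red the 4906 called higher. The named genes range from Capn8 at -7.15 to Alox12e at 7.37, and the blue points reach further from 0 than the red ones at low levels.

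On the first principal component of 12476 genes, which held 88.6% of the variance, the 4 WT runs lay together and apart from the 3 ATLD libraries. The log2 ratios over genes had a standard deviation of 0.70 to 0.94 between an ATLD library and a WT run. That was 0.12 to 0.20 between WT cultures of the first batch, 0.32 between the 2 runs of WT replicate 1, and 0.25 to 0.36 between ATLD libraries. The distance between genotypes was therefore larger than the distance between the runs of one culture. The batch term of the fit was itself called for 44 genes (0.233%), while 4791 passed 0.05 before adjustment. It rests on 3 WT cultures sequenced in both batches. Each resequenced run was set against all original WT libraries of its day, not against its own first run alone. The term can therefore also hold differences between cultures. A fitted difference has this term removed, so for GC-rich genes it is smaller than the ratio of the plain means.

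Short transcripts were higher and long ones lower in ATLD. The 12476 genes with a mean log2 CPM above 1 were split into 5 bins of equal size. In the bin with the shortest exons (57 to 2489 bases) the median log2 difference was 0.56, with 55% called higher and 11.2% lower. In the bin with the longest (7688 to 123200 bases) it was -0.32, with 13.8% higher and 45.2% lower. The trend was as large between the ATLD libraries and the resequenced WT run of the same batch, from 0.57 to -0.34. The cytosolic ribosomal protein genes moved the same way as short genes: 73 of 77 were called higher and none lower, with a median of 1.15. Base composition moved with the sequencing run instead. From the lowest to the highest of 5 bins of GC content the median difference between the runs of WT replicate 1 went from -0.22 to 0.49, while the fitted genotype difference went from 0.20 to -0.02. The part of length and of library composition in each result below was not tested. List medians from a fit with an offset for GC content and length, called the offset below, are therefore given beside the main lists, and the median of all genes in that fit was -0.17.

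**Figure D2:**
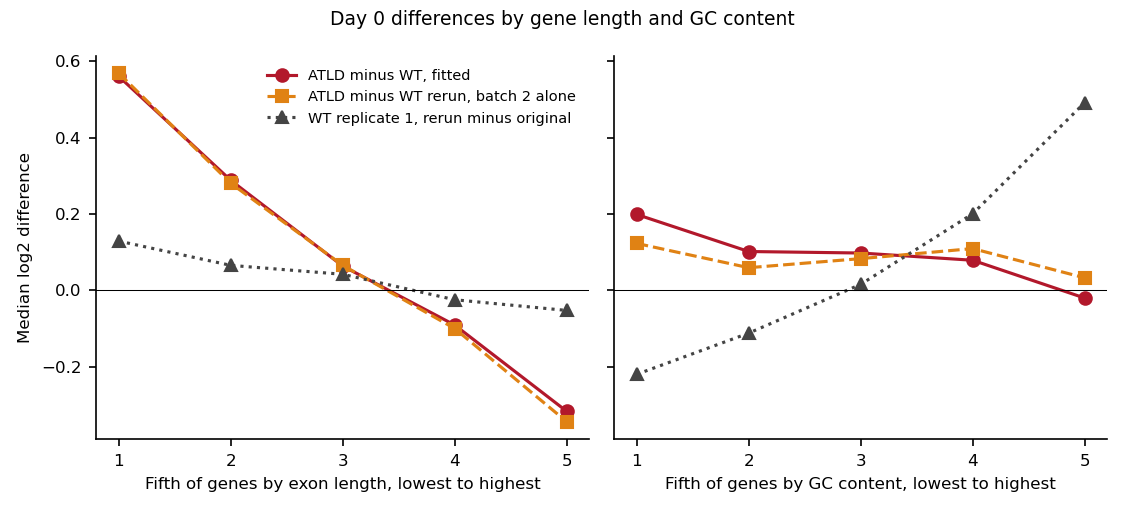
Median log2 difference (y axis) in 5 bins of genes ordered by exon length and by GC content (x axis). Lines show the fitted ATLD minus WT difference, the ATLD minus resequenced WT difference within the second batch, and the resequenced minus original run of WT replicate 1. The genotype lines fall with length from 0.56 to -0.32 and the run line rises with GC content from -0.22 to 0.49.

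The targeted gene was examined first. Mre11a (ENSMUSG00000031928, mm10 chr9:14784654-14837123, plus strand) was at 58.6, 54.4 and 53.3 CPM in WT, 53.3 CPM in the resequenced run and 15.02, 14.1 and 15.5 CPM in ATLD. All 3 ATLD values lay far below all 4 WT runs, and the groups did not overlap. The log2 difference was -1.79 ± 0.11 (± SE, as for every log2 difference here; edgeR adjusted p = 2.59e-10), a 3.46-fold lower transcript level, and -1.81 against the resequenced run alone. The other subunits of the complex were not called lower. Rad50, the ATPase of the complex, was at 82.999, 82.3 and 77.3 CPM in WT, 81.6 CPM in the resequenced run and 79.4, 76.6 and 89.7 CPM in ATLD, and its difference of 0.06 ± 0.12 log2 units was not called (edgeR adjusted p = 0.673). Nbn, which encodes Nbs1, was called higher, at 0.50 ± 0.15 log2 units (edgeR adjusted p = 0.00851), but this call was lost and the sign turned to -0.07 with the GC and length offset.

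Of 18 genes of the complex and of ATM signalling, 4 were called higher and 4 lower, against 55.5% of all genes called, and 2 and 2 without the resequenced run. The lower calls were also 2 without ATLD replicate 2 or without ATLD replicate 3. Chek2, the effector kinase of ATM, was higher by 0.71 ± 0.12 log2 units. Its values were 36.9, 36.7 and 33.03 CPM in WT, 32.4 CPM in the resequenced run and 44.1, 51.4 and 58.3 CPM in ATLD. Atm itself was lower at -0.59 ± 0.21, with the call lost in 5 alternatives, and Trp53bp1, which encodes the break-binding protein 53BP1, was lower at -0.44 ± 0.09 log2 units and turned to 0.11 with the length offset. The scaffold Mdc1 and the resection nuclease Exo1 were not called, at -0.18 and 0.26 log2 units. Mdc1 was called lower with the GC offset and Exo1 higher with the GC and length offset.

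Against 55.5% of all genes, 38.5% were called in homologous recombination and the Fanconi pathway, 43.8% in end joining and 43.8% in the ATR checkpoint list. In the first 6 of 26 were higher and 4 lower, with a median of 0.06, and 5 and 2 without the resequenced run. Fancl and Ube2t, the ligase and the conjugating enzyme of the Fanconi pathway, were higher by 1.19 ± 0.15 and 0.97 ± 0.12, while the nuclease scaffold Slx4 was lower at -0.79 ± 0.19 log2 units. Brca2, a recombination mediator, was -0.37 log2 units and not called, but was called lower in some alternatives. In end joining 6 of 16 were higher, or 3 without ATLD replicate 3, and 1 was lower. Xrcc6, the Ku70 subunit, and Xrcc4, the ligase partner, were higher by 0.61 ± 0.11 and 0.91 ± 0.16, and Prkdc, the DNA-dependent kinase, was lower at -0.69 ± 0.17 log2 units. In the ATR checkpoint list 7 of 16 were higher, against 26.0% of all genes, and none lower, with Rpa1 and Rpa2, subunits of the single-strand binding protein, at 0.56 and 0.69 log2 units.

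Interferon-stimulated genes were higher in ATLD before any oncogene was active. These are genes that type I interferon switches on, and most encode antiviral proteins. Of 62 in the list 61 were tested, and 45 were called higher and 1 lower, against 26.0% and 29.5% of all genes. Their median log2 difference was 1.03, and 47 of 61 had all ATLD values above all 4 WT runs, against 33.0% of all genes. Of the 45, 38 were called higher in every alternative tried. Their median exon length was 3892 bases, in the middle length bin, where the median of all genes was 0.06. With the GC and length offset 46 were higher and 3 lower, and the median was 0.82.

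Isg15, the ubiquitin-like modifier, was at 11.8, 11.2 and 18.4 CPM in WT, 12.1 CPM in the resequenced run and 85.7, 78.4 and 62.3 CPM in ATLD. Even the lowest ATLD value lay far above the highest WT value, that of replicate 3. The log2 difference was 2.34 ± 0.32 (edgeR adjusted p = 1.08e-05) and 2.58 within the second batch. Ifit3, which binds viral RNA together with other Ifit proteins, was at 2.38, 2.47 and 3.94 CPM in WT, 2.38 CPM in the resequenced run and 23.4, 15.99 and 19.1 CPM in ATLD, a log2 difference of 3.05 ± 0.45 (edgeR adjusted p = 2.57e-05). Oas1a, a sensor of double-stranded RNA, was at 3.88, 3.68 and 5.31 CPM in WT, 5.06 CPM in the resequenced run and 37.8, 33.1 and 28.2 CPM in ATLD, a log2 difference of 2.702 ± 0.25 (edgeR adjusted p = 8.59e-08). In both genes the groups did not overlap, and WT replicate 3 was the highest of the WT runs.

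Sequences upstream of these genes are shown because the genes rose together and were picked for carrying the interferon-stimulated response element. The 250 bases before the RefSeq start of each (GRCm38.p6) are printed 5′ to 3′ on the gene's strand. Capitals mark matches to GAAANN followed directly by GAAA on either strand, which overlap one another in Oas1a and in Isg15. Ifit3 lies on the plus strand at chr19:34583279-34583528, Oas1a on the minus strand at chr5:120907526-120907775 and Isg15 on the minus strand at chr4:156200819-156201068.
Ifit3: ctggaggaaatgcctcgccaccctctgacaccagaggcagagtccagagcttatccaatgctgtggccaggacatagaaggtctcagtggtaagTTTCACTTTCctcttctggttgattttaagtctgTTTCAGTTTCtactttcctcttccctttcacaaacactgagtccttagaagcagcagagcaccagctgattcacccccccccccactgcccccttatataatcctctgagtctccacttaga
Oas1a: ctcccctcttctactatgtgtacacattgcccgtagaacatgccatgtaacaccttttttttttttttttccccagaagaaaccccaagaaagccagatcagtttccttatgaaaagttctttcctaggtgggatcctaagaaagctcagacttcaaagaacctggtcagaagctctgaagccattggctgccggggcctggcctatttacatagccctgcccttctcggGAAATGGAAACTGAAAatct
Isg15: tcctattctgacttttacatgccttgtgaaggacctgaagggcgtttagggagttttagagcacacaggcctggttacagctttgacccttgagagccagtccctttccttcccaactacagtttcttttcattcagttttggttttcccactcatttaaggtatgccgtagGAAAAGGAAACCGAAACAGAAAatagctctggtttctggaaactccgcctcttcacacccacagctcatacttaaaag
The motif was found in 16 of 35 (45.7%) of the interferon genes called higher that had a promoter in the RefSeq table, in 3 of 9 (33.3%) of those tested and not called higher, and in 3.16% of 12155 tested genes with a promoter. A match describes these letters and is not evidence of binding.

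A regulator of the pathway rose as well as its products. Irf7, the factor that amplifies interferon transcription, was at 19.3, 21.3 and 28.8 CPM in WT, 25.2 CPM in the resequenced run and 141, 107 and 102 CPM in ATLD, with no overlap and a log2 difference of 2.03 ± 0.30. Irf1 was 0.23 log2 units and not called, but was called higher in some alternatives. Bst2, the virion tether, was at 13.1, 17.3 and 18.5 CPM in WT, 16.2 CPM in the resequenced run and 98.1, 94.1 and 73.9 CPM in ATLD, a log2 difference of 2.32 ± 0.31. Of the 61 tested, the largest rise was that of Ifi27l2a, a mitochondrial interferon-induced protein, at 0.855, 0.912 and 1.59 CPM in WT, 1.05 CPM in the resequenced run and 22.8, 26.7 and 13.8 CPM in ATLD, a log2 difference of 3.87 ± 0.47. The member called lower was Ifitm1, which was at 0.218 CPM or less in all 7 libraries and lost the call in some alternatives. Genes of the Oas1 and Ifit3 families have near-identical copies, so reads may be split between them.

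**Figure D3:**
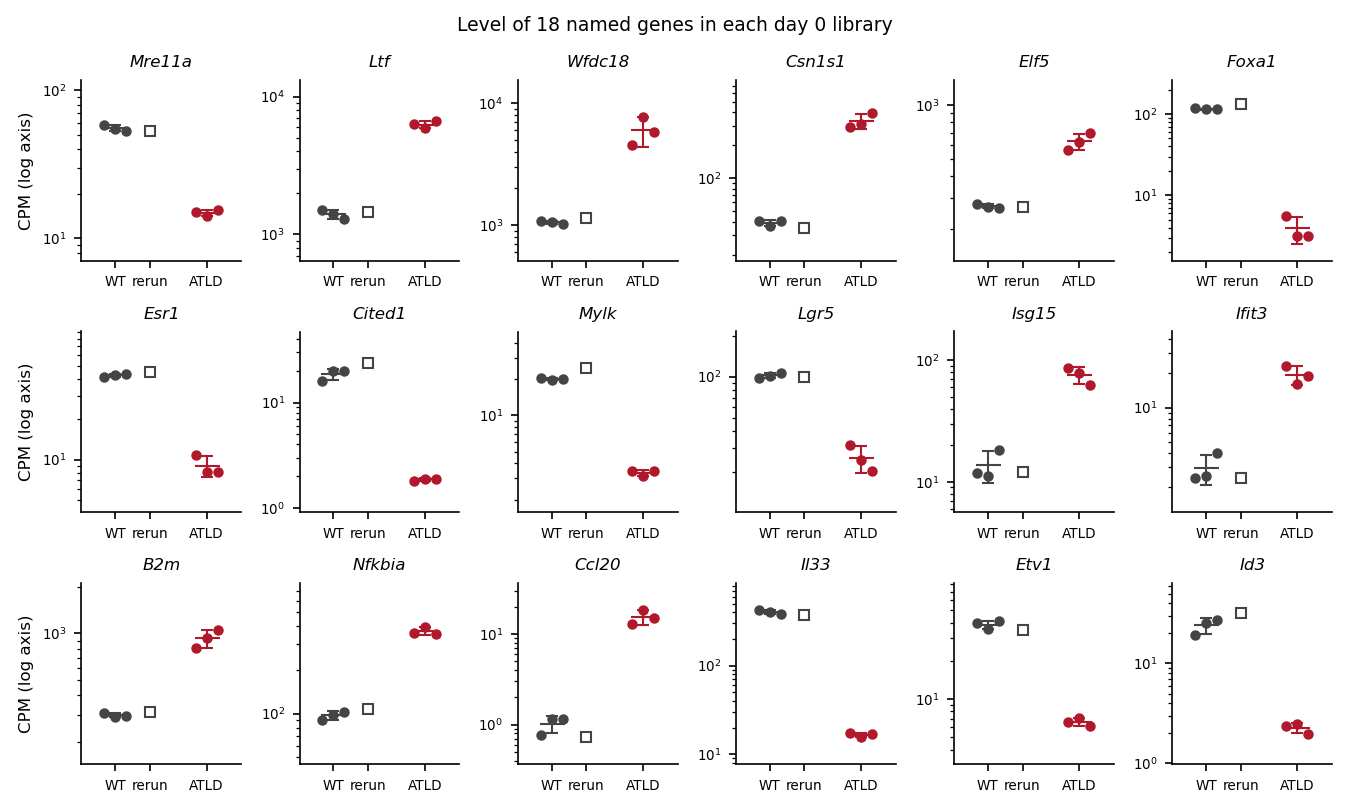
CPM on a log axis (y) of 18 genes in the day 0 libraries. Grey dots are the 3 WT libraries, the open square is the resequenced run of WT replicate 1, red dots are the 3 ATLD libraries, and bars are the mean ± SD of 3 libraries. Mre11a, Foxa1 and Il33 fall and Isg15, Ifit3 and Ccl20 rise with no overlap between groups.

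Of 17 nucleic acid sensing genes tested upstream of interferon, 8 were called (47.1%, against 55.5% of all genes), 7 higher (against 26.0% of all genes) and 1 lower, with a median of 0.19. Cgas, the sensor of cytosolic DNA, was at 10.5, 9.501 and 8.79 CPM in WT, 8.15 CPM in the resequenced run and 10.4, 9.16 and 11.3 CPM in ATLD. The groups overlapped, and its call of 0.43 ± 0.16 log2 units was lost in 7 alternatives. Tmem173, which encodes STING, was called lower, at -0.28 ± 0.10 log2 units, a call lost in 8 alternatives. Enzymes that limit nucleotides or cut RNA paired with DNA were among the higher ones: Samhd1, a dNTP hydrolase, by 0.94 ± 0.12, and the RNase H2 subunits Rnaseh2a and Rnaseh2b by 0.80 ± 0.14 and 0.99 ± 0.13 log2 units. In the Ifi200 family of DNA-binding proteins 7 of 8 tested members were higher, led by Ifi205 at 3.35 ± 0.33 log2 units, but with the offset 3 of 8 were, and their sequences are similar enough for reads to be misassigned.

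Antigen presentation through MHC class I rose with the interferon genes. Of 17 genes tested 11 were higher and 1 lower, against 26.0% and 29.5% of all genes. The median was 0.92, or 0.51 with the offset. B2m, the shared light chain, was at 309, 289.7 and 296 CPM in WT, 311 CPM in the resequenced run and 807, 939.6 and 1056 CPM in ATLD. Every ATLD value lay far above every WT run, and the log2 difference was 1.59 ± 0.17 (edgeR adjusted p = 5.78e-07). Psmb8 and Psmb9, subunits of the immunoproteasome, were higher by 1.42 ± 0.19 and 1.31 ± 0.22, and the heavy chains H2-K1 and H2-D1 by 0.995 ± 0.22 and 0.98 ± 0.23 log2 units. Of 7 class II genes 1 was called, Cd74, against 55.5% of all genes, and that call was lost without the resequenced run.

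Inhibitors and targets of NF-kB were higher. NF-kB is the factor that transcribes inflammatory cytokines and, in feedback, its own inhibitors. Of 16 subunit and feedback genes 9 were higher and 1 was lower, against 26.0% and 29.5% of all genes. The median was 0.63, and 12 were higher with the offset. Nfkbia, the main inhibitor, was at 90.03, 98.3 and 103 CPM in WT, 108 CPM in the resequenced run and 359.8, 397 and 354 CPM in ATLD. The groups were far apart, and the log2 difference was 1.73 ± 0.14 (edgeR adjusted p = 2.4e-08). Nfkbie and Tnip1, further inhibitors, were higher by 1.67 ± 0.16 and 1.13 ± 0.30 log2 units.

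Of 29 cytokine and chemokine genes tested, 18 were higher and 5 lower, with a median of 1.40, against 26.0% and 29.5% of all genes. With the offset the counts were 17 and 5 and the median 1.05. Ccl20, which attracts cells carrying the receptor CCR6, was at 0.772, 1.15 and 1.14 CPM in WT, 0.734 CPM in the resequenced run and 12.9, 18.4 and 15.3 CPM in ATLD, a log2 difference of 4.49 ± 0.26 (edgeR adjusted p = 1.21e-10). Cxcl1, a neutrophil chemokine, was at 45.5, 42.2 and 43.6 CPM in WT, 41.4 CPM in the resequenced run and 156, 209 and 156 CPM in ATLD, a log2 difference of 2.07 ± 0.14 (edgeR adjusted p = 1.96e-09). Neither overlapped between groups, and ATLD replicate 2 was the highest in both. Cxcl16, Cxcl2 and the monocyte chemokine Ccl2 rose by 2.34 ± 0.12, 2.48 ± 0.15 and 3.25 ± 0.21 log2 units. Tnf rose by 1.58 ± 0.13, and Lif and Csf1, cytokines of the interleukin-6 and macrophage systems, by 1.09 ± 0.15 and 1.05 ± 0.14 log2 units. Csf1r, the receptor for Csf1 on macrophages, had at most 13 counts in any of the 7 libraries.

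The 5 cytokine genes that fell include the alarmin Il33, which epithelia hold in the nucleus and release on injury. Il33 was at 429, 406 and 378 CPM in WT, 378 CPM in the resequenced run and 17.2, 15.5 and 16.8 CPM in ATLD. The ATLD values lay close together and far below every WT run, and the log2 difference was -4.45 ± 0.14 (edgeR adjusted p = 6.52e-14). The chemokines Cxcl12 and Cxcl14 fell, at -1.62 ± 0.12 and -2.75 ± 0.21, the death ligand Tnfsf10 at -1.35 ± 0.16 and Il18 at -1.903 ± 0.32 log2 units.

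The kappa-B motif that NF-kB binds was sought in the 250 bases upstream of tested genes with a promoter in the RefSeq table. It was found in 5 of 8 (62.5%) NF-kB feedback genes called higher and in 2 of 5 (40.0%) not called higher. Among cytokine genes it was found in 6 of 11 (54.5%) called higher and in 1 of 10 not called higher. Over all tested genes with a promoter the share was 5.59%. The same windows are printed for Nfkbia on the minus strand at chr12:55492648-55492897, Cxcl1 on the plus strand at chr5:90890995-90891244 and Ccl20 on the plus strand at chr1:83116516-83116765, with the kappa-B matches in capitals (a pair that overlap in Cxcl1).
Nfkbia: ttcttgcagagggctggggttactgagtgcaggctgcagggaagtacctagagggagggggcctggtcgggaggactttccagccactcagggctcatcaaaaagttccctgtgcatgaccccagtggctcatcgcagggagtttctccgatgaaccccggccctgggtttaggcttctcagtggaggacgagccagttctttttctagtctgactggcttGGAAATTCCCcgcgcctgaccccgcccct
Cxcl1: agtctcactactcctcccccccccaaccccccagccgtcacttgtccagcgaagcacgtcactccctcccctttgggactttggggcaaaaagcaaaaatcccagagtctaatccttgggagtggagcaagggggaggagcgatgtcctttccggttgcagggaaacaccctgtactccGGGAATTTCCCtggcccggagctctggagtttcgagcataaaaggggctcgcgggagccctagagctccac
Ccl20: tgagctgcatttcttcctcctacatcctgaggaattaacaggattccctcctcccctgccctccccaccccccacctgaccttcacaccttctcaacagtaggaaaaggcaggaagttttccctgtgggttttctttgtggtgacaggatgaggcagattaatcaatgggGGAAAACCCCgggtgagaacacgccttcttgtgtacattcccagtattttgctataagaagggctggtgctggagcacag
As for the interferon motif, a match is a description of sequence.

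Markers of secretory luminal progenitors were mostly higher. Of 18 luminal progenitor markers 11 were higher and 2 lower, against 26.0% and 29.5% of all genes. The median was 0.67, or 0.62 with the offset. Without the resequenced run 8 were higher and 2 lower, and the higher calls of the markers Krt8 and Lcn2 were lost. Ltf, which encodes the milk protein lactotransferrin, was at 1496, 1409 and 1280.05 CPM in WT, 1463 CPM in the resequenced run and 6321, 5871 and 6602 CPM in ATLD. Every ATLD value lay far above every WT run, and the log2 difference was 2.06 ± 0.13 (edgeR adjusted p = 5.57e-10). Wfdc18, a secreted protease inhibitor of the gland, was at 1079, 1060.4 and 1016 CPM in WT, 1150.2 CPM in the resequenced run and 4515, 7776 and 5848 CPM in ATLD, a log2 difference of 2.26 ± 0.20 (edgeR adjusted p = 5.09e-08). Elf5, the factor that specifies alveolar progenitors, was at 278, 267 and 265 CPM in WT, 268 CPM in the resequenced run and 560.4, 624 and 694 CPM in ATLD, a log2 difference of 1.199 ± 0.14 (edgeR adjusted p = 1.03e-06). None of the 3 overlapped between groups. Aldh1a3, an aldehyde dehydrogenase used to mark progenitors, rose by 1.43 ± 0.10, and the luminal keratin Krt18 by 0.73 ± 0.18 log2 units.

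Milk genes moved apart rather than together. Of 17 tested 7 were higher and 3 lower, or 58.8% called, near the 55.5% of all genes. The median of 0.37 turned to -0.21 with the offset and to -0.07 without the resequenced run. The casein Csn1s1 was at 40.4, 36.4 and 40.8 CPM in WT, 34.97 CPM in the resequenced run and 294, 311 and 396 CPM in ATLD, a log2 difference of 3.13 ± 0.19 (edgeR adjusted p = 3.02e-10). Lalba, the lactose synthase subunit, went the other way, at 3.36, 2.0003 and 3.32 CPM in WT, 3.03 CPM in the resequenced run and 0.151, 0.135 and 0.286 CPM in ATLD, a log2 difference of -4.097 ± 0.40 (edgeR adjusted p = 1.52e-07). Btn1a1, of the milk fat globule, rose by 1.39 ± 0.13 log2 units.

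Hormone-sensing luminal markers fell. Of 15 tested 10 were lower and 1 was higher, against 29.5% and 26.0% of all genes. The median was -0.80, or -0.92 with the offset. Foxa1, the factor that opens chromatin for the oestrogen receptor, was at 117, 114 and 114 CPM in WT, 131 CPM in the resequenced run and 5.59, 3.11 and 3.13 CPM in ATLD. No ATLD library exceeded 5.59 CPM, and the log2 difference was -5.005 ± 0.20 (edgeR adjusted p = 1.82e-12). Esr1, the oestrogen receptor itself, was at 41.4, 43.2 and 43.6 CPM in WT, 45.2 CPM in the resequenced run and 10.8, 8.05 and 8.12 CPM in ATLD, a log2 difference of -2.26 ± 0.18 (edgeR adjusted p = 1.28e-08). Cited1, its coactivator, was at 15.95, 19.97 and 19.8 CPM in WT, 23.7 CPM in the resequenced run and 1.81, 1.89 and 1.89 CPM in ATLD, a log2 difference of -3.82 ± 0.26 (edgeR adjusted p = 1.28e-09). None of these overlapped between groups. The factor Tbx3 fell, at -2.09 ± 0.16 and the prolactin receptor Prlr at -1.28 ± 0.21 log2 units, while Pgr, the progesterone receptor, was at 44.3, 41.5 and 44.02 CPM in WT, 37.9 CPM in the resequenced run and 31.2, 27.8 and 29.5 CPM in ATLD and its small fall was lost in 12 alternatives. In bulk libraries fewer cells of a type and less RNA per cell cannot be told apart, and this holds for every lineage here.

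Most basal and myoepithelial markers also fell. Of 25 tested 18 were lower and 1 was higher, against 29.5% and 26.0% of all genes. The median was -0.83, and -0.81 with the offset. The lower calls numbered 11 without the resequenced run, and 8 held in every alternative. ATLD values lay below all WT runs in 16 of the 25 and above them in 5, against 33.9% and 33.0% of all genes. The summed level of the list was not lower, at 4762 to 6350 CPM in the WT runs and 6588, 5725 and 5820 CPM in ATLD. Mylk, the kinase that drives smooth muscle contraction, was at 20.6, 19.7 and 20.03 CPM in WT, 24.9 CPM in the resequenced run and 3.48, 3.14 and 3.46 CPM in ATLD, a log2 difference of -2.85 ± 0.13 (edgeR adjusted p = 1e-11). Myh11 and Cnn1, further contractile genes, fell, at -2.98 ± 0.30 and -1.74 ± 0.22 log2 units. Lgr5, a WNT co-receptor of basal stem cells, was at 98.01, 101 and 107 CPM in WT, 100.1 CPM in the resequenced run and 31.5, 24.4 and 20.1 CPM in ATLD, a log2 difference of -1.93 ± 0.27 (edgeR adjusted p = 1.4e-05). Trp63, the factor that maintains the basal state, fell, at -0.93 ± 0.14 log2 units. The groups did not overlap for any of these. Acta2, a further marker of the list, was also called lower. That call was lost in some alternatives, among them the second batch alone, at -0.34 log2 units.

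The basal keratins Krt5 and Krt14 were not called. Krt5 was at 740.1, 972 and 1016 CPM in WT, 1112 CPM in the resequenced run and 1677, 1506 and 1722 CPM in ATLD, and Krt14 at 839, 1127 and 1160.2 CPM in WT, 1336 CPM in the resequenced run and 1767, 1627 and 1769 CPM in ATLD. All ATLD values lay above the WT runs in both, but the second run of WT replicate 1 was itself higher than the first, by 0.59 and 0.67 log2 units. The batch term of the fit is not this ratio, since it sets the resequenced runs against all original WT libraries of their day. With the batch term removed the differences were 0.45 ± 0.27 and 0.22 ± 0.36 log2 units and were not called. Krt5 was called higher in 6 of 19 alternatives, among them the second batch alone, at 0.60 log2 units (edgeR adjusted p = 0.0139), and Krt14 turned to -0.16 with the length offset. The single basal marker called higher was Vim, an intermediate filament of basal and mesenchymal cells, by 1.096 ± 0.16 log2 units.

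**Figure D4:**
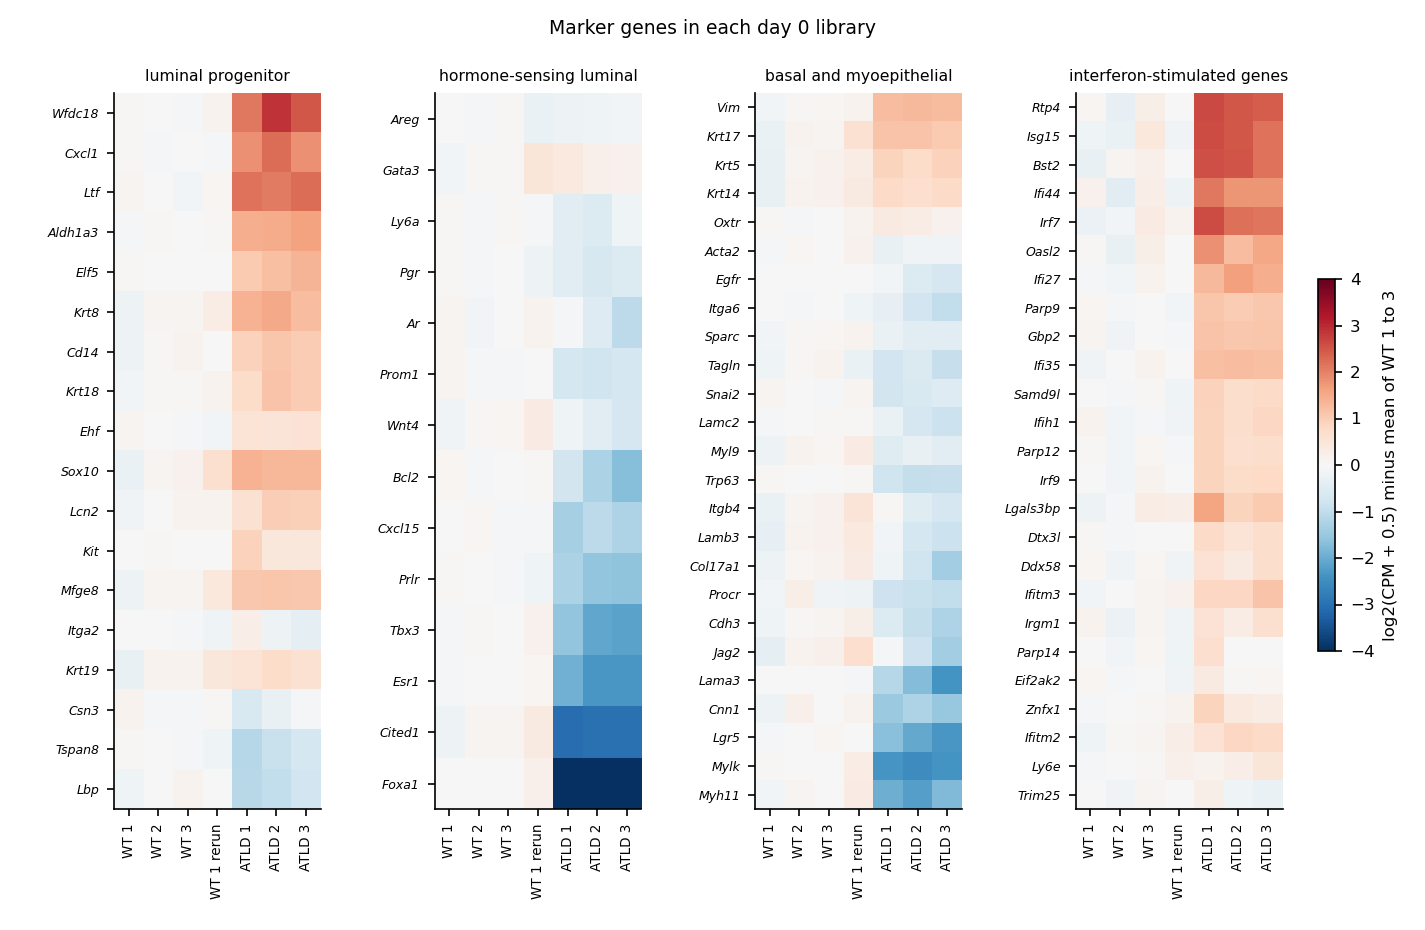
Log2 (CPM + 0.5) in each day 0 library minus the mean of WT replicates 1 to 3, not adjusted for batch, for luminal progenitor, hormone-sensing and basal markers with at least 1 CPM and the 25 most abundant interferon genes; colours stop at ±4. The ATLD columns resemble one another for hormone-sensing and interferon genes, while for Lama3, at 81.3, 53.8 and 33.7 CPM, ATLD replicate 1 lies nearest to WT.

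Most feedback genes of ERK signalling were lower. ERK is the last kinase of the pathway below ERBB receptors, and it induces its own phosphatases, Sprouty proteins and ETS factors. Of 15 tested none was higher and 11 were lower, against 26.0% and 29.5% of all genes. All 11 were lower in every alternative, and the median was -0.99, and -1.24 with the offset. In 3 of the 15, Myc, Ier3 and Phlda1, all ATLD values lay above all WT runs, against 33.0% of all genes. Up to 3 of the 15 were called higher in single alternatives. Etv1, an ETS factor, was at 39.4, 35.4 and 40.9 CPM in WT, 34.9 CPM in the resequenced run and 6.63, 7.06 and 6.18 CPM in ATLD, a log2 difference of -2.38 ± 0.18 (edgeR adjusted p = 5.43e-09). Spry4 was at 16.9, 18.3 and 19.4 CPM in WT, 20.7 CPM in the resequenced run and 7.57, 5.84 and 6.03 CPM in ATLD, a log2 difference of -1.73 ± 0.16 (edgeR adjusted p = 1.27e-07), and Dusp6, the ERK phosphatase, fell, at -0.99 ± 0.09. In these 3 the groups did not overlap. Myc, which ERK also induces, was 0.53 log2 units and not called (edgeR adjusted p = 0.0633), but was called higher in 7 of 19 alternatives.

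ERBB receptors at the top of that pathway gave 1 call and their ligands several. Of 14 receptor and ligand genes tested 5 were higher and 5 lower, against 26.0% and 29.5% of all genes. The share called was 71.4%, against 55.5% of all genes. Erbb2, the rat form of which is the oncogene neuT, was at 77.8, 91.7 and 99.5 CPM in WT, 111 CPM in the resequenced run and 114, 83.1 and 76.3 CPM in ATLD. The groups overlapped and the difference of -0.35 ± 0.28 log2 units was not called (edgeR adjusted p = 0.299). Egfr and Erbb3 were not called either, at -0.42 and -0.18 log2 units. With the GC offset Erbb2 and Egfr were called lower, at -0.32 and -0.54 log2 units (edgeR adjusted p = 0.049 and 0.00944). Egfr was also called lower in other alternatives. Erbb4 rose from under 1 CPM in every WT run to 4.73, 3.86 and 2.003 CPM, a call lost within the second batch alone. Among ligands Btc and Epgn rose by 1.58 ± 0.16 and 1.65 ± 0.22, and the neuregulins Nrg1, Nrg2 and Nrg4 fell, at -0.74 ± 0.14, -1.997 ± 0.24 and -3.22 ± 0.36 log2 units. Whether Erbb2 reads include rat transgene RNA cannot be told from gene counts.

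Immediate early genes split. Atf3 rose by 1.21 ± 0.15, while Egr2 and the orphan receptor Nr4a1 fell, at -1.098 ± 0.13 and -1.87 ± 0.27 log2 units. Without the batch term the median of the 23 genes turned from -0.33 to 0.10, so no direction is given for the list.

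Of 15 NOTCH pathway genes tested none was higher and 9 were lower, against 26.0% and 29.5% of all genes, with a median of -0.89. But 3 to 10 were called when single libraries were left out: 3 without the resequenced run, 3 without ATLD replicate 2 and 4 without ATLD replicate 3. Hey1, a direct NOTCH target, was at 180.2, 183 and 199 CPM in WT, 193 CPM in the resequenced run and 61.3, 60.2 and 59.1 CPM in ATLD, a log2 difference of -1.705 ± 0.11 (edgeR adjusted p = 3.46e-10) with no overlap, and the ligand Dll1 fell, at -1.81 ± 0.22. Notch3 overlapped between groups, at 189.6, 238 and 252 CPM in WT and 213, 117 and 76.2 CPM in ATLD.

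In the WNT pathway 6 of 20 genes were higher, or 3 without the resequenced run, and 11 lower. Over all genes 26.0% were higher, near the share of this list, and 29.5% lower. Rspo1, a secreted agonist that acts through Lgr receptors, was at 2.06, 2.94 and 3.11 CPM in WT, 3.93 CPM in the resequenced run and 30.4, 30.9 and 27.6 CPM in ATLD, a log2 difference of 2.95 ± 0.23 (edgeR adjusted p = 7.57e-09). The ligands Wnt7b and Wnt5b rose by 1.43 ± 0.21 and 1.298 ± 0.20 log2 units. The inhibitors Sfrp1, Nkd2 and Dkk3 fell, at -1.82 ± 0.15, -1.64 ± 0.15 and -1.56 ± 0.15 log2 units, as did the receptor Lgr5 given above.

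Of 17 TGF-beta, BMP and YAP response genes 3 were higher and 11 lower, against 26.0% and 29.5% of all genes. The median was -0.80. Id3, a BMP target that blocks basic helix-loop-helix factors, was at 19.3, 25.5 and 27.3 CPM in WT, 31.9 CPM in the resequenced run and 2.39, 2.46 and 1.98 CPM in ATLD, a log2 difference of -3.89 ± 0.43 (edgeR adjusted p = 9.8e-07). Inhba, the subunit of activin A, was at 157, 139.96 and 139.7 CPM in WT, 138 CPM in the resequenced run and 15.1, 10.9 and 9.38 CPM in ATLD, a log2 difference of -3.48 ± 0.22 (edgeR adjusted p = 4.12e-10). Both were separated by far more than the spread of either group. Ccn2 fell, at -0.91 ± 0.13, whereas Ankrd1, also a YAP target, rose by 2.32 ± 0.31, and Tgfb2 rose by 0.95 ± 0.13 log2 units.

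Matrix genes were mostly lower in ATLD. Of 28 tested 2 were higher and 14 lower, against 26.0% and 29.5% of all genes. The median was -0.76, and -0.91 with the offset. Col7a1, the anchoring fibril collagen beneath the basal layer, was at 101, 133 and 139 CPM in WT, 165 CPM in the resequenced run and 42.8, 25.3 and 11.6 CPM in ATLD, a log2 difference of -2.69 ± 0.56 (edgeR adjusted p = 0.000559). The laminin chain Lama3 was at 175, 181 and 181 CPM in WT, 169 CPM in the resequenced run and 81.3, 53.8 and 33.7 CPM in ATLD, and its fall of -1.62 ± 0.33 log2 units was not called within the second batch alone. In both genes ATLD replicate 1 was the highest and replicate 3 the lowest of the ATLD libraries. Over all genes, 297 of 12476 genes (2.38%) differed by over 2-fold between those 2 libraries, against 1 to 6 between WT cultures of the first batch.

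Protease inhibitors moved in opposite directions. Timp1 was at 16.95, 18.6 and 19.9 CPM in WT, 17.95 CPM in the resequenced run and 65.7, 63.6 and 69.3 CPM in ATLD, a rise of 1.799 ± 0.12, and Timp3, which is held in the matrix, was at 479, 499.7 and 518 CPM in WT, 475 CPM in the resequenced run and 137, 101 and 98.99 CPM in ATLD, a log2 difference of -2.07 ± 0.15 (edgeR adjusted p = 3.59e-09). The membrane protease Mmp14 fell, at -1.27 ± 0.21 log2 units. Most fibroblast markers fell beside these genes: 7 of 9 tested were lower and none higher, against 29.5% and 26.0% of all genes. Fbln1 went the other way without being called higher. It had 512, 426 and 630 counts in WT, 743 in the resequenced run and 1053, 872 and 962 in ATLD. With the GC and length offset 1 of the 9 was called higher. The summed level of the list was 240.7 to 341.2 CPM in the WT runs and 119, 80.8 and 71.2 CPM in ATLD. Most of that sum was Fbln2, at 174, 225 and 233 CPM in WT, 269 CPM in the resequenced run and 78.2, 46.8 and 38.7 CPM in ATLD, while the defining collagen Col1a1 was at 2.04 CPM or less in all 7 libraries. Whether fibroblast RNA takes part in the fall of the matrix genes was not tested.

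Of 20 tight junction and cadherin genes 11 were higher and 4 lower, against 26.0% and 29.5% of all genes, with a median of 0.54. With the offset 13 were higher and 6 lower, with a median of 0.30. Cldn1 and Cldn4, which seal the space between cells, rose by 1.44 ± 0.15 and 1.11 ± 0.25 log2 units. Cldn10 was at 7.51, 8.001 and 8.49 CPM in WT, 7.26 CPM in the resequenced run and 0.2797, 0.316 and 0.484 CPM in ATLD, a log2 difference of -4.33 ± 0.21 (edgeR adjusted p = 1.29e-11). N-cadherin (Cdh2) and P-cadherin (Cdh3, a basal marker) fell, at -1.58 ± 0.19 and -1.19 ± 0.29 log2 units.

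Cell cycle genes were moderately higher. Over all genes 26.0% were higher and 29.5% lower. Of 30 G2 and mitosis genes 26 were higher and none lower, with a median of 0.60. Of 30 S phase genes 21 were higher and none lower, with a median of 0.56. With the offset the counts were 26 and 22 and the medians 0.47 and 0.45. Cdk1, the mitotic kinase, was at 94.8, 94.3 and 86.4 CPM in WT, 82.7 CPM in the resequenced run and 151, 177 and 176 CPM in ATLD, a log2 difference of 1.06 ± 0.11 (edgeR adjusted p = 3.76e-07) with no overlap. The replication clamp Pcna was at 136, 135 and 127 CPM in WT, 137 CPM in the resequenced run and 241, 303 and 250.2 CPM in ATLD, a log2 difference of 0.96 ± 0.12 (edgeR adjusted p = 4.95e-06). The proliferation marker Mki67 was at 414, 402 and 348 CPM in WT, 381 CPM in the resequenced run and 449.7, 333 and 383 CPM in ATLD, overlapped between groups and was not called (0.07 ± 0.18 log2 units). The topoisomerase Top2a and the mitotic factor Foxm1 were not called, at 0.32 and -0.38 log2 units. With the GC offset Foxm1 was called lower, at -0.43. With the GC and length offset Top2a and Mki67 were called higher, at 0.46 and 0.37.

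Some p53 targets rose in the same libraries. Of 30 tested 11 were higher and 3 lower, with a median of 0.29. The share called was 46.7%, against 55.5% of all genes, of which 26.0% were higher and 29.5% lower. The counts were 16 and 7 with the GC offset, 15 and 7 with the GC and length offset, and 16 and 8 in the 6 original day 0 libraries without a batch term. Cdkn1a, the p21 inhibitor of cyclin-dependent kinases, was at 60.9, 66.3 and 65.4 CPM in WT, 71.7 CPM in the resequenced run and 141, 136 and 153 CPM in ATLD, a log2 difference of 0.996 ± 0.12 (edgeR adjusted p = 1.68e-06), with every ATLD value above every WT run. Ccng1, Fas and Eda2r rose by 1.305 ± 0.14, 1.48 ± 0.15 and 1.17 ± 0.18 log2 units. Plk2, a kinase that p53 also induces, fell, at -1.07 ± 0.10. Phlda3 was 0.32 log2 units and not called, but was called higher in some alternatives, among them the GC offset at 0.50. In the BCL2 family 11 of 16 were higher and 3 lower, or 4 higher and 1 lower without the resequenced run. The death-promoting member Bid rose by 0.88 ± 0.10, Bax was called higher at 1.06 ± 0.33 except without the resequenced run, and the survival gene Bcl2, also a hormone-sensing marker, fell, at -1.15 ± 0.25 log2 units.

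**Figure D5:**
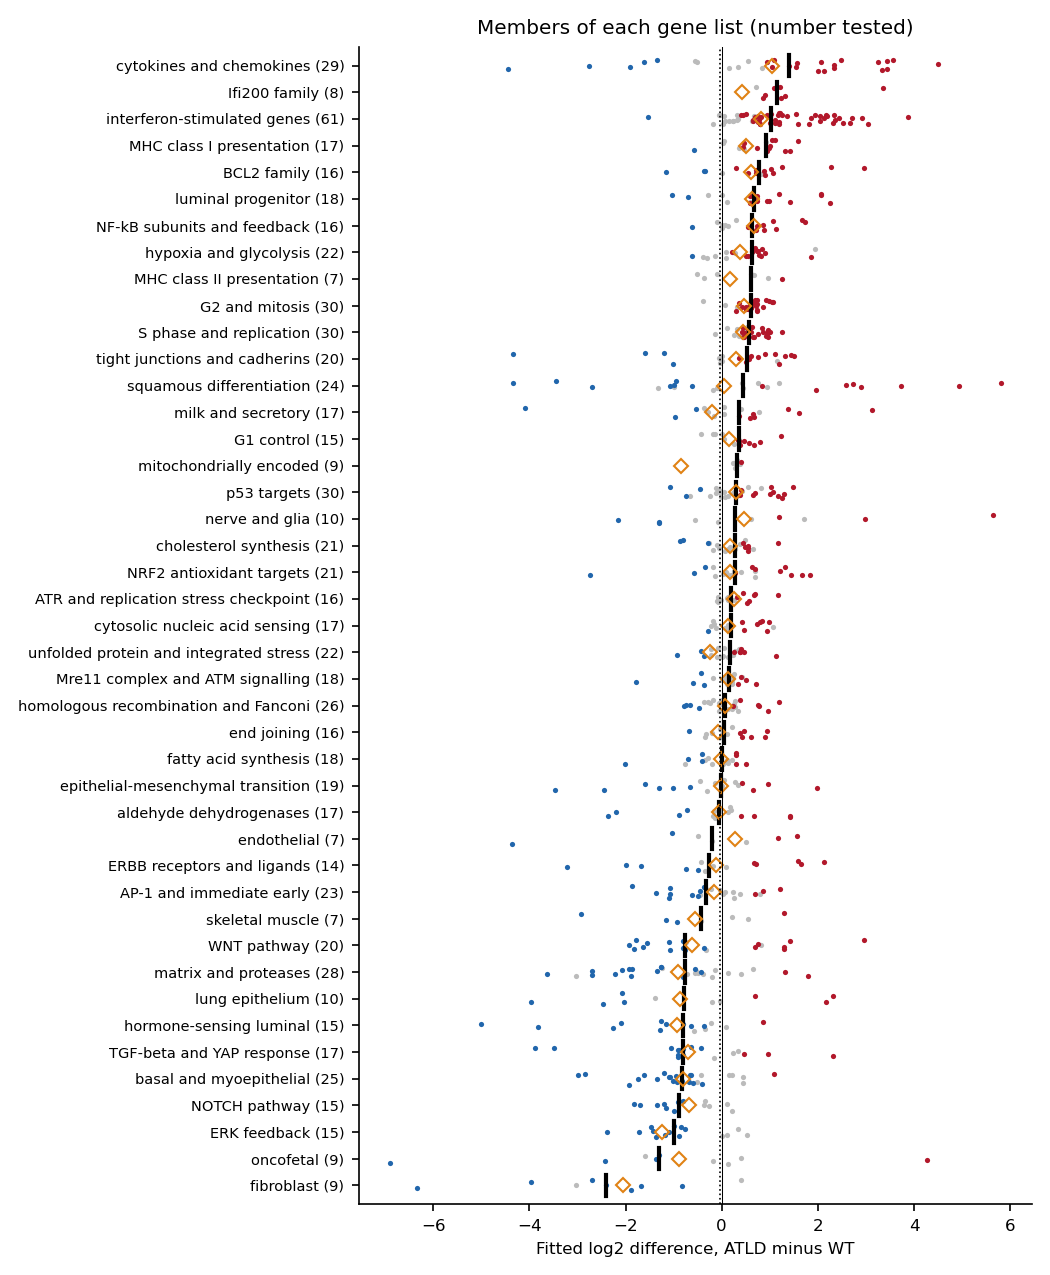
Fitted log2 difference of ATLD minus WT at day 0 (x axis) for every tested member of the gene lists (y axis) with at least 7 tested. Dots are genes coloured by call, the black bar is the list median, the orange open diamond is its median with the GC and length offset, and the dotted line is the median of all genes at -0.04. Interferon and cytokine medians lie at 1.03 and 1.40, and those of ERK feedback and fibroblast markers at -0.99 and -2.42.

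Metabolic and stress lists were mixed. Of all genes 55.5% were called, against 63.6% in hypoxia and glycolysis, 52.4% of NRF2 targets and 40.9% of the unfolded protein list. In hypoxia and glycolysis 13 of 22 were higher and 1 lower, with a median of 0.63, but 5 were higher without the resequenced run, and with the offset 14 were higher and 4 lower, with a median of 0.38. Pgk1 and Ldha, glycolytic enzymes, rose by 0.89 ± 0.12 and 0.81 ± 0.15 log2 units. Of 21 NRF2 targets 8 were higher and 3 lower: the peroxidase Prdx1 was at 646, 596 and 586 CPM in WT, 525 CPM in the resequenced run and 1144, 1606 and 1486 CPM in ATLD, a log2 difference of 1.45 ± 0.18, and the transferases Gsta3 and Gsta4 rose by 1.85 ± 0.29 and 1.67 ± 0.16. In the unfolded protein list 6 of 22 were higher and 3 lower, which turned to 1 higher and 10 lower with the offset, so its direction is not given. Asns, the asparagine synthetase, rose by 1.13 ± 0.15 and the stress sensor Ern1 fell, at -0.93 ± 0.17 log2 units. In lipid synthesis Idi1 of the cholesterol pathway rose by 1.16 ± 0.18, while the desaturase Scd1 and the acyltransferase Dgat2 fell, at -0.70 ± 0.11 and -2.02 ± 0.22 log2 units. Mitochondrially encoded transcripts gave 1 call among 9, and their median turned from 0.32 to -0.84 with the offset.

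The largest rises and falls are given among called genes whose log2 CPM averaged 1 or more over the day 0 libraries, whose groups did not overlap and whose symbol is no predicted or clone name. Alox12e, an epidermal lipoxygenase, was at 0.521, 0.647 and 0.423 CPM in WT, 0.635 CPM in the resequenced run and 102, 116 and 122 CPM in ATLD, a log2 difference of 7.37 ± 0.32 (edgeR adjusted p = 5.99e-12). Akr1c18, which inactivates progesterone, was at 0.0626, 0.265 and 0.148 CPM in WT, 0.278 CPM in the resequenced run and 8.58, 9.86 and 9.97 CPM in ATLD, a log2 difference of 5.84 ± 0.31. Tac1, the precursor of substance P, was at 0.417, 0.588 and 0.3599 CPM in WT, 0.397 CPM in the resequenced run and 8.86, 13.4 and 9.64 CPM in ATLD, a log2 difference of 4.81 ± 0.41. In all 3 the WT runs were under 1 CPM. The other rises among the 10 largest by that rule were the acute phase gene Saa3 at 5.14, Nlrp10 at 5.04, the chemokine Ccl20 given above, the T-box gene Tbx15 at 3.999 and the amino acid sensing GTPase Rragd at 3.96 log2 units. Rpl34-ps1 and Dlx6os1, at 6.2002 and 5.49 log2 units, are less certain, since the first is a pseudogene of a ribosomal protein gene and the second an antisense RNA, and the strand setting of the counts is not given in the sources used here.

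Capn8, a calpain protease of the stomach, was at 24.5, 22.4 and 25.7 CPM in WT, 21.4 CPM in the resequenced run and 0.151, 0.113 and 0.176 CPM in ATLD, a log2 difference of -7.15 ± 0.22 (edgeR adjusted p = 6.52e-14). Dmbt1, a secreted scavenger receptor, was at 67.8, 91.8 and 73.3 CPM in WT, 72.1 CPM in the resequenced run and 1.25, 0.474 and 0.2201 CPM in ATLD, a log2 difference of -6.86 ± 0.59. F5, coagulation factor V, was at 43.5, 42.3 and 45.8 CPM in WT, 44.4 CPM in the resequenced run and 0.559, 0.271 and 0.2201 CPM in ATLD, a log2 difference of -6.85 ± 0.30. ATLD values were 1.25 CPM or less in all 3. Upk3a, a uroplakin, was at 96.7, 127 and 125 CPM in WT, 139 CPM in the resequenced run and 2.56, 1.83 and 2.27 CPM in ATLD, and its difference was -6.13 ± 0.37 log2 units. The other large falls were the collagens Col2a1 and Col6a3 at -6.53 and -6.33, Pcp4 at -5.84, the teneurin Tenm3 at -5.604, Itih2 at -5.58 and the lipid transporter Abca12 at -5.396 log2 units.

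Genes that lie beside Mre11a travel with it when a mutant allele is bred in, so their calls were counted by distance. Within 1 Mb of Mre11a 16 of 24 tested genes were called (66.7%), within 5 Mb 26 of 39 (66.7%), within 10 Mb 84 of 149 (56.4%), and on the rest of chromosome 9 beyond 20 Mb 57.0%. Single chromosomes gave 48.0% (chromosome 19) to 62.0% (chromosome 3) among the autosomes and the X. The amino acid transporter gene Slc36a4 (chr9:15709738-15743361) was at 26.9, 26.8 and 26.1 CPM in WT, 24.7 CPM in the resequenced run and 10.8, 8.37 and 7.42 CPM in ATLD, a log2 difference of -1.41 ± 0.20 (edgeR adjusted p = 1.14e-05). Ccdc82 and Sesn3, a sestrin, fell, at -0.90 ± 0.15 and -0.81 ± 0.17, and Endod1 rose by 0.76 ± 0.10 log2 units. Passenger variants and the allele itself cannot be told apart here.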

How the data were processed

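Polyadenylated RNA was sequenced after a stranded TruSeq preparation, per the labels' protocols. The authors deposited 1 table of raw counts per gene for all libraries, made with featureCounts on mm10, with DESeq2 also named, per the submitters' processing notes. No source used here gives the aligner, the versions or the strand setting. From the counts, edgeR 4.0.16 (R 4.3.3) fitted group and batch on all 21 libraries with TMM scaling and filterByExpr (minimum count 10, minimum total 15), leaving 18844 genes and 14 residual degrees of freedom. Each resequenced run entered the WT group of its day as a further library, with no term for culture. The 2 runs of such a culture therefore counted as separate libraries in the p-values. A limma voom fit with culture as a random block called 10802 genes. The quasi-likelihood test was robust, with a prior count of 0.125 for log2 differences. Values called CPM use TMM-scaled library sizes. Within-batch and run differences use log2 (CPM + 0.5). The fits were tested on simulated data with 200 changed genes and all others equal between genotypes. Such data cannot test scaling or error rates where most genes differ, as here.

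All 55536 gene IDs matched GENCODE vM21, which gave GC content, and 36178 had a count. Exon lengths are those given in the deposited count table. Promoters are the 250 bases before each RefSeq start in GRCm38.p6. The rule for named genes took Mre11a, Erbb2, the Mre11 complex and the sex chromosome genes, up to 4 called genes of the largest difference per list with at least 1 CPM in a group, the 10 largest rises and 10 largest falls among called genes whose log2 CPM averaged 1 or more over the day 0 libraries, whose groups did not overlap and whose symbol is no predicted or clone name, and up to 6 called neighbours of Mre11a. A further 68 genes, and any other gene named, were chosen after their values were seen. The members and the 48 gene lists were chosen with earlier results of these data known. Alternatives changed the scaling, filter, tool (DESeq2 1.42.0, limma 3.58.1), libraries, batch term, replicate block and offsets for GC content and length.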

Additional observations from a re-analysis of the deposited data

How the results depend on the processing

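Over 19 alternatives the number of genes called was 7727 to 12316, against 10458. Leaving out single libraries gave 7727 to 10769, lowest without the resequenced run, and 5244 calls (50.1%) kept their direction and threshold in all 19, of which 2330 were higher and 2914 lower. The count by direction held within 1.5 times throughout, but with the GC and length offset, chosen after seeing the data, 37.6% of calls were higher against 46.9%, the median of all genes was -0.17 and 126 calls turned direction. The run difference was called for 44 genes, 71 with a GC offset and 148 with the GC and length offset. Of 188 genes named by rule 149 had the same call in every alternative, as had 45 of 68 genes added after their values were seen. Signs that turned were as follows, as log2 differences, and the cause was not tested. With the GC and length offset Nbn was -0.0697, Rpa3 -0.0474, Tipin -0.15, Dnajb9 -0.21, mt-Nd4 -0.64, Rad50 -0.0105, Mdc1 0.0557, Trp53bp1 0.11 and Krt14 -0.16. With the GC offset Rad50 was -0.0413 and Mki67 -1.11e-05. Without a batch term Erbb2 was 0.0196 in the 18 original libraries, and in the 6 original day 0 libraries Rad50 was -0.0166 and Mki67 -0.0310. Leaving out single libraries gave -0.00428 (without ATLD replicate 3) to 0.1247 for Rad50 and -0.0469 (without ATLD replicate 1) to 0.175 for Mki67. Deviations from the group means correlated at -0.15, 0.20 and -0.29 between WT and ATLD libraries of the same number. Between different numbers they correlated at -0.13 to 0.28, so these values cannot tell whether the numbers pair the cultures. A fit with the replicate block called 9144 genes. Depth limits the genes with few counts, where a log2 difference depends on the prior count.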

Other observations

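Squamous genes moved in both directions before neuT. Of 24 tested 8 were higher and 7 lower, against 26.0% and 29.5% of all genes. The median log2 difference of 0.44 became 0.05 with the GC and length offset. S100a8, a calcium-binding alarmin of inflamed epithelium, was at 0.918, 1.26 and 1.02 CPM in WT, 0.853 CPM in the resequenced run and 5.31, 9.61 and 5.88 CPM in ATLD, a log2 difference of 2.91 ± 0.36 (edgeR adjusted p = 2.72e-06), and all ATLD values lay above all WT runs. Krt4, a keratin of non-cornified squamous epithelium, was at 2.04, 1.76 and 2.31 CPM in WT, 2.24 CPM in the resequenced run and 0.194, 0.203 and 0.2201 CPM in ATLD, a log2 difference of -3.44 ± 0.31 (edgeR adjusted p = 6.96e-08), with every ATLD library below every WT run. Aldehyde dehydrogenase genes also split, with 4 of 17 higher and 4 lower, or 47.1% called against 55.5% of all genes. Aldh3a2, which oxidises fatty aldehydes, was at 131, 123 and 121 CPM in WT, 119 CPM in the resequenced run and 291, 314 and 337 CPM in ATLD, a log2 difference of 1.42 ± 0.10 (edgeR adjusted p = 1.41e-09), while Aldh1a1, which makes retinoic acid, was at 18.2, 15.6 and 14.2 CPM in WT, 15.4 CPM in the resequenced run and 3.25, 3.203 and 3.43 CPM in ATLD, a log2 difference of -2.203 ± 0.16 (edgeR adjusted p = 3.15e-09).

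Among 9 oncofetal genes tested 1 was higher and 4 lower, so 55.6% were called, about the 55.5% of all genes. Hmga2, an architectural chromatin protein of the embryo, was at 0.1251, 0.235 and 0.106 CPM in WT, 0.258 CPM in the resequenced run and 4.22, 3.07 and 2.82 CPM in ATLD, a log2 difference of 4.28 ± 0.30 (edgeR adjusted p = 1.83e-09). Igf2bp3, an RNA-binding protein of the embryo, went the other way, at 1.23, 0.794 and 1.27 CPM in WT, 1.07 CPM in the resequenced run and 0.2797, 0.248 and 0.176 CPM in ATLD, a log2 difference of -2.42 ± 0.30 (edgeR adjusted p = 2.47e-06). Stmn2, a tubulin regulator best known from neurons, was at 0.104, 0.118 and 0.0635 CPM in WT, 0.0992 CPM in the resequenced run and 5.59, 3.83 and 5.59 CPM in ATLD, a log2 difference of 5.64 ± 0.25 (edgeR adjusted p = 6e-12). The groups did not overlap in any of the 3.

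Some transcripts of other organs moved with the sequencing run. The lung surfactant gene Sftpc was at 4.78, 10.6 and 4.53 CPM in WT, 0.516 CPM in the resequenced run and 0.08605, 0.0902 and 0.04402 CPM in ATLD, so the resequenced run of WT replicate 1 lay nearer to the ATLD libraries than to its own first run. Lyz2, a lysozyme of myeloid cells, was at 4.73, 9.06 and 4.26 CPM in WT, 0.0397 CPM in the resequenced run and 0.0215, 0.0451 and 0 CPM in ATLD and was not called. Their part in any result was not tested. Xist, the RNA of the inactive X chromosome, was at 1974, 1693 and 1729.96 CPM in WT, 1522 CPM in the resequenced run and 928, 514 and 685 CPM in ATLD, a log2 difference of -1.03 ± 0.34 (edgeR adjusted p = 0.0167) that lost its call in some alternatives.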
